A study of Homo sapiens with 4 samples.

Results

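Peaks of N6-methyladenosine (m6A) in the 5′ UTR, but away from the cap, were examined in OE-19 cells, an established cell line of adenocarcinoma of the esophagogastric junction (AEG). The labels name no drug or engineered change but state that cells were fixed with UV light before lysis, and meRIP-seq, in which an anti-m6A antibody pulls down marked RNA fragments for sequencing, was run on 2 immunoprecipitation (IP) and 2 input replicates. A peak list was used for both IP replicates, the input samples had no peak list here, and so no test between groups could be made. Depth is unknown, since a list holds no numbers of reads, and nothing in the labels says that the replicates were separate cultures.

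A peak was included when its summit, the position of highest signal, fell in the 5′ UTR of a protein-coding gene, on its transcript with the longest coding region (CDS), and more than 150 nt from the transcript start. The transcript had to have 2 or more exons. Distances were counted along the spliced transcript of GENCODE version 44 on hg38. This gave 848 of the 24607 peaks in replicate 1 and 447 of the 19318 peaks in replicate 2. Of the summits on multi-exon protein-coding transcripts they made up 5.22% in replicate 1 (95% Wilson interval 4.89% to 5.57%) and 4.21% in replicate 2 (3.84% to 4.61%). Intervals here and below cover counting error only. When peaks that overlapped between the lists were counted once, 937 distinct peaks remained.

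The 5′ UTR is the part of the mRNA that the scanning ribosome passes between the cap and the start codon. Upstream ATGs in it can open short upstream open reading frames (uORFs), which often reduce initiation at the main start codon, and m6A in this region has been linked to initiation that does not need the cap. The nucleotide beside the cap can itself carry a related mark, m6Am, which m6A antibodies also recognise. Signal far from the cap is therefore read separately from signal at the cap. The m6A writer, the METTL3-METTL14 complex, prefers the core GGAC, and methylation is known to be sparse close to exon junctions.

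Some of the summits may lie near the cap of another isoform. In replicate 1, 584 of the 848 summits (68.9%, interval 65.7% to 71.9%) were more than 150 nt from the start of every annotated transcript of the gene that held them in an exon. The other 264 (31.1%) were within 150 nt of at least one such start. In replicate 2 the numbers were 354 (79.2%, 75.2% to 82.7%) and 93 (20.8%). Which start OE-19 cells use was not tested. The lists carry no strand. Exons of several genes held 107 summits of replicate 1 (12.6%) and 54 of replicate 2 (12.1%), whose gene is uncertain, and 13 and 8 of the summits fell in the CDS of another gene.

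The core motif at some of the strongest peaks is shown first, since GGAC is the letter pattern on which the motif results rest. Each sequence is 25 nt of the spliced transcript on the strand of the gene, from GENCODE version 44, with GGAC in capitals. These are the 4 genes, among the 10 with the strongest peaks in both lists, whose nearest GGAC lay within 50 nt of the summit of replicate 1.
ST3GAL2, chr16:70398829-70398853, minus strand: gggctgcaatGGACtgacctccccc
SLC5A3, chr21:34095145-34095169, plus strand: ataaaaagttGGACacttctgtcat
CHSY1, chr15:101251822-101251846, minus strand: gccagccggaGGACgcgggcagggc
PTCH1, chr9:95509036-95509060, minus strand: gcagagtccgGGACcgagcagccac
The adenine of GGAC lay 5 nt before the summit in ST3GAL2 and 4 nt after it in CHSY1. It lay 40 nt after the summit in SLC5A3 and 31 nt before it in PTCH1. For the other 6 of the 10 genes the nearest GGAC was farther away, from 53 nt in KBTBD11 to 204 nt in HYAL2.

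The strongest peaks were then described, ranked by the geometric mean of the fold enrichment in both lists, with 1 peak per gene and only summits in exons of 1 gene. Fold enrichment is the authors' ratio of the signal at the summit over the local background of the peak caller. The ranking was made on these values, so they are a description. ST3GAL2, a sialyltransferase that caps sugar chains, reached 19.9 (replicate 1) and 11.7 (replicate 2). Its summit lay 306 nt before the start codon in a 5′ UTR of 2108 nt. CHSY1, a chondroitin sulfate synthase, had 16.7 and 10.4, and its summit was 210 nt from the start and 382 nt before the start codon. HYAL2, a hyaluronidase, had 18.01 and 7.73, with the summit 870 nt before the start codon. ENPP4, an ectonucleotidase, was one of 3 among the 10 with the higher value in replicate 2 (9.58 and 13.9).

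SLC5A3, the sodium and myo-inositol cotransporter, had nearly the same value in both lists, with 16.0 and 14.6. Its summit lay in exon 2, 82 nt before the start codon, and the peak (chromosome 21, 34094924 to 34095449) covered the start codon. PTCH1, the Hedgehog receptor, had 2 such peaks in each list within its 5′ UTR of 905 nt. The one nearer the cap reached 18.6 and 8.77, and the one nearer the start codon 13.7 and 8.63. KBTBD11, a kelch and BTB domain protein, had 11.4 and 18.8. Its replicate 1 summit, in a peak of 3129 bp, lay 82 nt before the start codon. The replicate 2 summit lay 484 nt farther upstream.

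NRIP1, a corepressor of nuclear receptors, had 12.7 and 13.3, with its summit in exon 4, 36 nt before the start codon. GPBP1, which binds GC-rich promoters, had 12.7 and 12.5, with the summit 233 nt before the start codon in a 5′ UTR with 18 upstream ATGs. ZFYVE19, a regulator of abscission at the end of cell division, had 16.1 and 12.3 with the summit 15 nt before the start codon. The summits of 9 of these 10 genes lay more than 200 nt from every annotated start, and that of ENPP4 lay 199 nt from the nearest.

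Fold enrichment was slightly lower in these peaks than in those of the other regions, as a description with no test. The median was 4.68 in replicate 1 (quartiles 3.27 and 6.75) and 3.97 in replicate 2 (2.90 and 5.45). For CDS peaks of multi-exon transcripts it was 5.18 and 4.86, for 3′ UTR peaks 5.33 and 4.66, and for 5′ UTR peaks within 150 nt of the start 4.81 and 4.25. Peaks had a median width of 260 and 306 bp in the 2 replicates, between the 185 and 225 bp near the cap and the 331 and 390 bp in CDS.

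For 354 peaks of replicate 1 the overlapping peak of replicate 2 also had its summit in the 5′ UTR more than 150 nt from the start. The summits of such a pair were a median of 20 bp apart, and 323 pairs (91.2%) were within 100 bp. Across these pairs, which share both libraries and are not independent, Pearson's r of log2 fold enrichment was 0.70 and Spearman's rho 0.70. Replicate 1 had the higher value in 84.5% of pairs, and the log2 ratio of replicate 1 to replicate 2 had a median of 0.45 (quartiles 0.15 and 0.82). For CDS pairs the same numbers were r = 0.70, 78.8% and 0.42, so the offset between the lists was present in both regions.

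**Figure D1:**
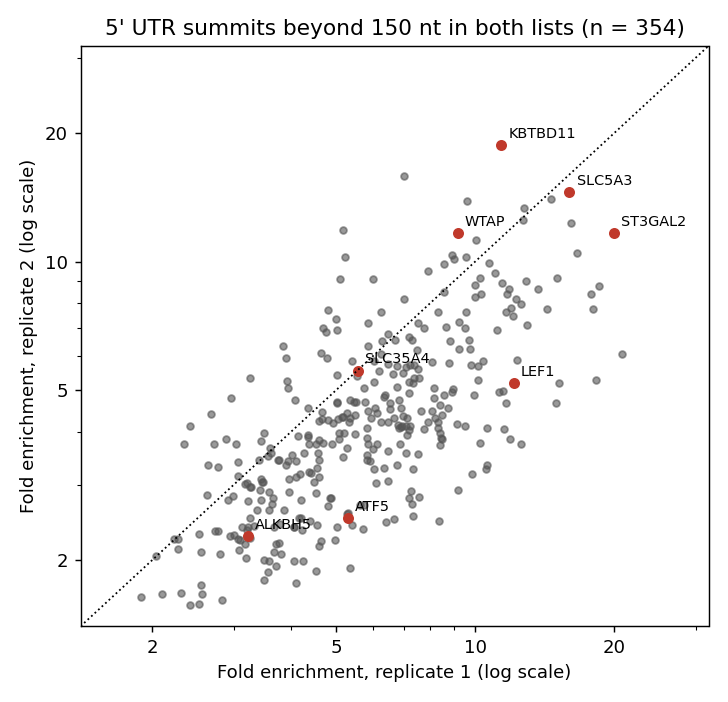
Fold enrichment of the 354 peaks with the summit in the 5′ UTR beyond 150 nt in both lists, replicate 1 on the x axis and replicate 2 on the y axis, both on log scales, 1 point per peak. The dotted line marks equal values, 84.5% of the points lie below it, and 8 genes named in the text are marked in red by their strongest peak.

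Next, it was examined how often the peaks were found in both replicates. In replicate 1, 420 of the 848 peaks overlapped a peak of replicate 2 by at least 1 bp, which is 49.5% (interval 46.2% to 52.9%). The overlapping peak had its summit in the 5′ UTR beyond 150 nt for 354 of the 420, within 150 nt of the start for 25, in CDS for 25 and elsewhere for 16. Over the whole list of replicate 1 the share was 56.7%, and over summits on multi-exon protein-coding transcripts 61.6%. In replicate 2, 427 of 447 peaks (95.5%, 93.2% to 97.1%) overlapped the longer list of replicate 1, against 74.6% of its whole list and 96.1% of its summits on multi-exon protein-coding transcripts.

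The 5′ UTR peaks away from the cap of replicate 1 stood between the cap and the coding region in this respect. They were shared more often than the 615 peaks within 150 nt of the start, of which 27.2% were shared (difference 22.4 percentage points, 95% Newcombe interval 17.4 to 27.1, Fisher's exact test, adjusted p = 1.13e-17). They were shared less often than CDS peaks, at 61.8% (difference −12.2 points, −15.7 to −8.74, Fisher's exact test, adjusted p = 9.37e-12). The same held against 3′ UTR peaks, at 67.7% (difference −18.1 points, −21.7 to −14.5, Fisher's exact test, adjusted p = 9.77e-23). Median peak width in replicate 1 had the same order, with 185 bp near the cap, 260 bp here, 331 bp in CDS and 348 bp in the 3′ UTR. Regions were not matched for width, and its part in these differences was not tested. When the peaks had to lie more than 300 nt from the start, the difference from CDS peaks was −4.62 points and no longer passed (Fisher's exact test, adjusted p = 0.113). In another setting, a fold enrichment of 5 or more was required of the peak and also of the overlapping peak of replicate 2. The difference from CDS peaks was then −23.2 points and that from cap-proximal peaks 9.75 points, and both passed. Sharing is a narrower measure there than in the values above. P-values were adjusted over 6 tests by the Benjamini-Hochberg method and count the peaks of 1 list as independent, so they do not cover variation between libraries.

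In replicate 2 no such difference passed 0.05. The share was 2.93 points above that of cap-proximal peaks (−0.964 to 8.26, Fisher's exact test, adjusted p = 0.186). It was −0.259 points from that of CDS peaks (−2.64 to 1.38, Fisher's exact test, adjusted p = 0.808) and −1.45 points from that of 3′ UTR peaks (−3.84 to 0.227, adjusted p = 0.171). The 2 lists differ in length, and which of them is closer to the m6A of the cells was not tested.

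**Figure D2:**
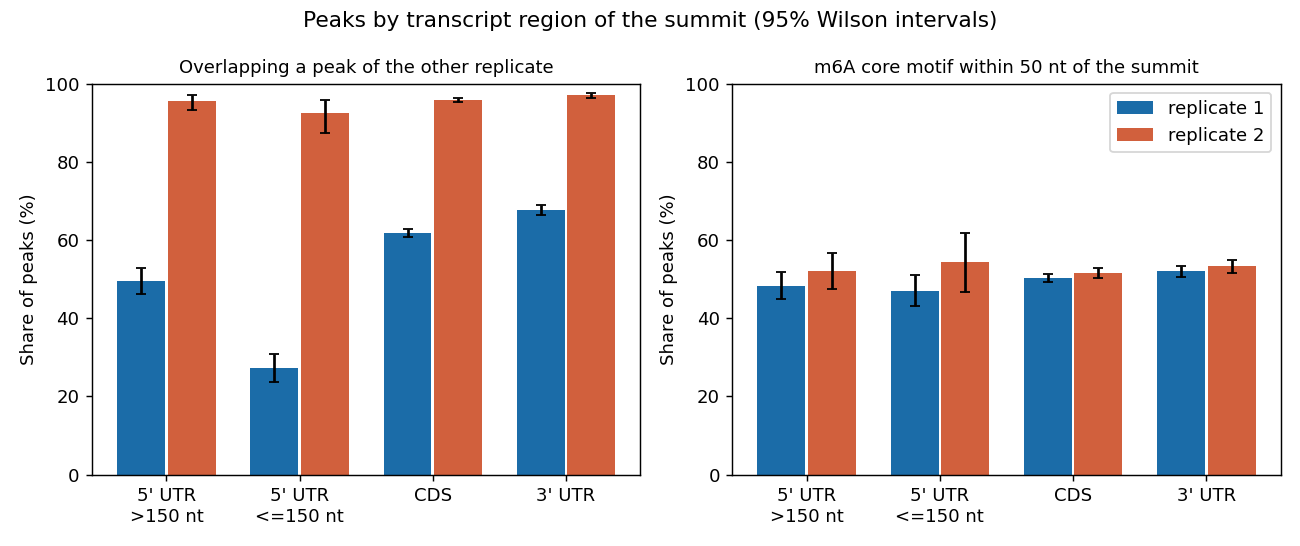
Share of peaks that overlap a peak of the other replicate (left) and share with the m6A core motif within 50 nt of the summit (right), by transcript region of the summit, for both replicates, with 95% Wilson intervals as error bars. In replicate 1 the shared portion rises from 27.2% near the cap to 49.5% in the rest of the 5′ UTR and 67.7% in the 3′ UTR, while the motif share lies between 47.0% and 54.3% throughout.

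Within replicate 1, shared and unshared 5′ UTR peaks differed in other measures. Median fold enrichment was 5.61 in shared and 4.01 in unshared peaks, and median width 429.5 and 188 bp. The mean GC content of the 101 nt around the summit was 63.9% for shared and 68.5% for unshared peaks. GGAC lay within 50 nt of the summit in 54.5% of the shared and 42.3% of the unshared peaks, a difference of 12.2 points (interval 5.51 to 18.8, Fisher's exact test, adjusted p = 0.00135). Peaks away from every annotated start were shared at 54.8%, against 37.9% for those within 150 nt of another start (difference 16.9 points, 9.69 to 23.8, Fisher's exact test, adjusted p = 3.44e-05). In replicate 2 the corresponding differences were 17.9 points for GGAC (−4.30 to 35.4, Fisher's exact test, adjusted p = 0.337) with 20 unshared peaks, and 2.50 points for the start (−1.82 to 9.59, adjusted p = 0.411). These comparisons were added after the values were seen, and their p-values were adjusted over 6 tests.

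The peaks seen in 1 list only were mostly weaker, but a few were strong. The 3 strongest of replicate 1 were in OVOL1, an epithelial transcription factor (fold enrichment 15.5), XKRX (11.8) and the receptor gene GPR160 (11.7). The summit in GPR160 was 4 nt from the start of another annotated transcript, whereas those in OVOL1 and XKRX were 165 and 260 nt from the nearest. In replicate 2 they were ORAI2, a calcium channel subunit (9.12), GPR161 (6.60) and ENSG00000285253 (6.60), and the last lay in exons of more than 1 gene. The ORAI2 summit was 30 nt from another annotated start, and the other two were 261 and 772 nt from the nearest.

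The position of the summits between cap and start codon was then measured. The median distance from the transcript start was 275.5 nt in replicate 1 (quartiles 194 and 447.5) and 310 nt in replicate 2 (214.5 and 517). The median distance to the start codon was 162 nt (69 and 341) and 211 nt (82 and 377.5). The 5′ UTRs themselves had a median length of 513 and 590 nt, counted once per peak, whereas the 8952 transcripts that could hold such a peak, with a 5′ UTR of at least 152 nt, had a median of 294 nt.

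**Figure D3:**
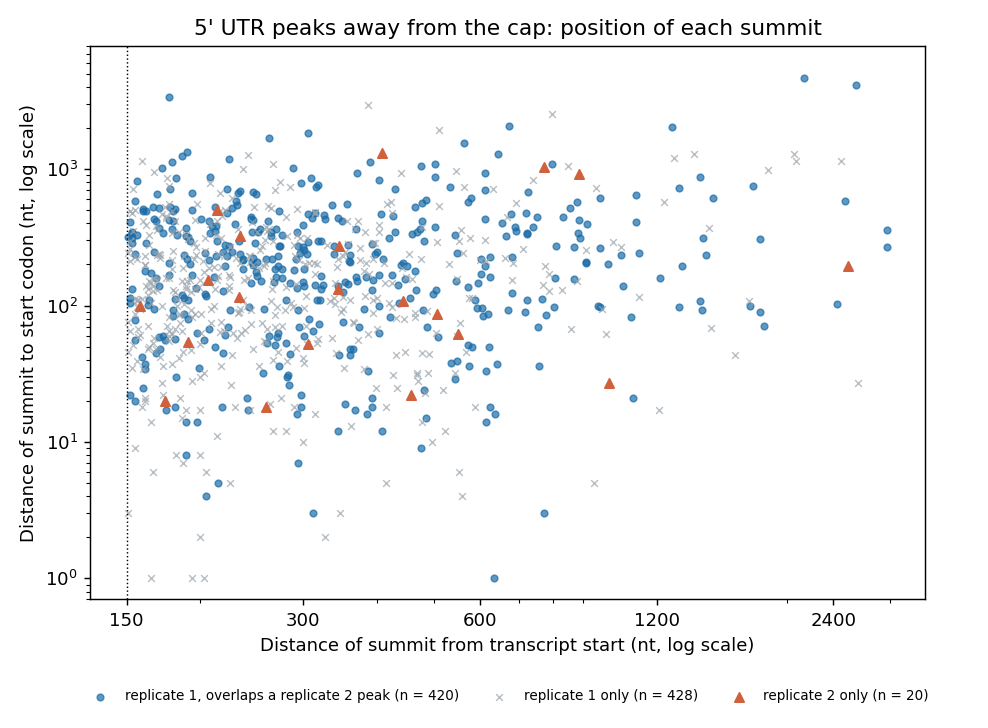
Distance of each summit from the transcript start (x axis, nt, log scale) and to the start codon (y axis, nt, log scale) for replicate 1 peaks that overlap a replicate 2 peak (420, circles), replicate 1 peaks that do not (428, crosses) and replicate 2 peaks that do not (20, triangles). The dotted line is the limit of 150 nt, and the summits spread over the whole range up to 4653 nt before the start codon.

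To set the positions against the sequence available, summits were counted per kb of 5′ UTR beyond 150 nt in genes with at least 1 peak summit in the same list. Density changed little over the 600 nt before the start codon in replicate 1, from 0.798 to 0.966 summits per kb, and dropped to 0.477 at 601 to 1000 nt and 0.286 beyond. In replicate 2 it was 0.451 to 0.465 in the last 150 nt, 0.649 at 301 to 400 nt and 0.190 beyond 1000 nt. There was thus no pile-up of summits at the start codon in either list. Counted from the transcript start, density was highest at 151 to 200 nt, with 1.25 summits per kb in replicate 1 and 0.592 in replicate 2. It was lowest beyond 1000 nt, with 0.326 and 0.278. No test was made of these densities.

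**Figure D4:**
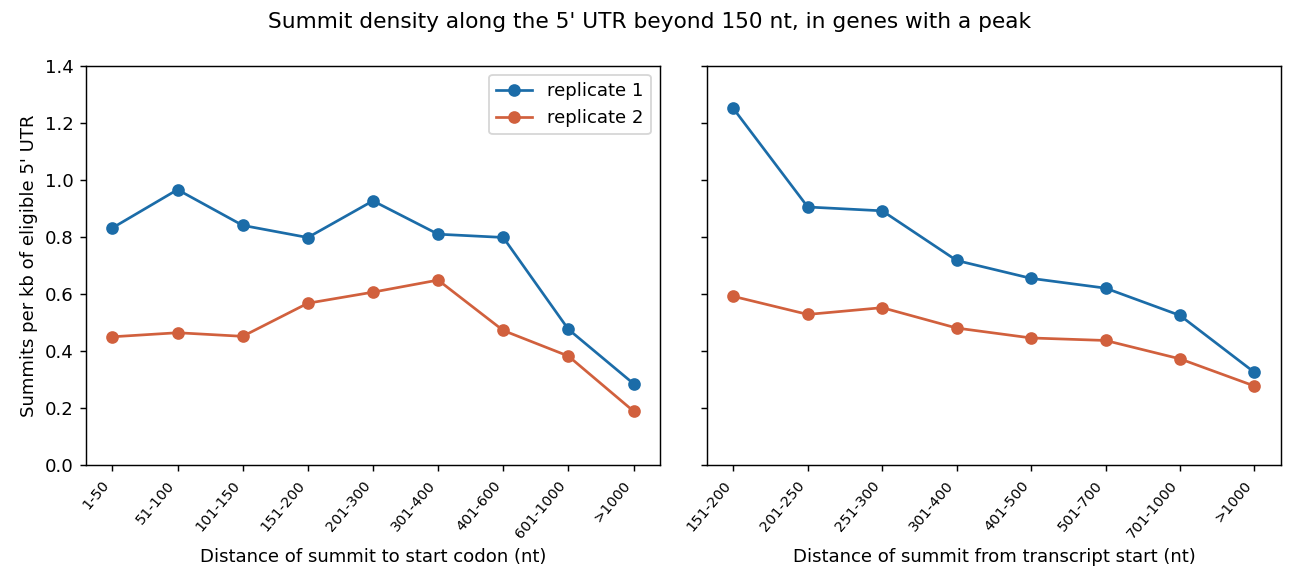
Summits per kb of 5′ UTR sequence beyond 150 nt in genes with a peak summit in the same list (y axis), by distance to the start codon (left) and from the transcript start (right), for both replicates. The curve of replicate 1 falls from 1.25 to 0.326 with distance from the transcript start, and neither curve has its highest point in the 50 nt next to the start codon.

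The peaks next to the limit of 150 nt are given on both sides of it, with no test. Just inside it, at 151 nt, replicate 1 had ATG101 (fold enrichment 6.67), CKMT1A (2.12) and LARP4 (4.40), of which CKMT1A is known to have a near-identical copy. Just outside, at 150 nt, it had INO80D (4.40), MACROH2A1 (2.67) and ENSG00000289346 (2.42). Replicate 2 had KCNE3 (3.12, at 151 nt), CTNND1 (2.35, at 152 nt) and FAM185A (4.83, at 152 nt) inside, and MBP (8.96), DHRS3 (4.07) and BCL11B (2.80) outside, at 150 nt.

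Many peaks reached the start codon. The peak interval covered the first base of the start codon in 328 cases in replicate 1 (38.7%, interval 35.5% to 42.0%) and 177 in replicate 2 (39.6%, 35.2% to 44.2%). It covered the transcript start in 42 (4.95%) and 9 (2.01%). The summit was within 50 nt of the start codon in 155 peaks of replicate 1 (18.3%) and 70 of replicate 2 (15.7%).

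For the peaks nearest to the start codon the sequence shows where translation would begin. Each is 30 nt of the spliced transcript with the start codon in capitals, for 3 of the 5 peaks found in both lists with the shortest distance.
RERE, chr1:8656292-8656321, minus strand: acagaagaaggcacgtggcgaatcATGaca
ATF5, chr19:49930827-49930856, plus strand: gtgcccagcacctgtgctacagccATGtca
MOAP1, chr14:93184237-93184266, minus strand: cttaagtctattatttcgggcaccATGact
RERE, an atrophin family corepressor, had its replicate 1 summit 1 nt before the start codon, with values of 5.31 (replicate 1) and 2.58 (replicate 2). It lay 73 nt from the start of another annotated transcript. MOAP1, a modulator of apoptosis, had its summit 9 nt before the start codon, with 7.22 and 5.72. ENSG00000285976 (4 nt, 4.16 and 2.50) and ASAH1, acid ceramidase (8 nt, 7.09 and 4.11), shared their exon with another gene, PTP4A1 and ASAH1-AS1. The summit in ASAH1 was 8 nt from another annotated start, and that in ENSG00000285976 was 128 nt from one.

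Farthest from the start codon, among peaks whose summit lay in this region in both lists, were those of ZC3H11A and ZNF75D. ZC3H11A, a zinc finger protein of mRNA export, had 2 peaks at 4170 and 4653 nt before the start codon, in a 5′ UTR of 6792 nt with 138 upstream ATGs, the most among the named genes. Fold enrichment in replicates 1 and 2 was 6.30 and 6.50 at the nearer peak and 4.10 and 3.40 at the farther one. Both summits lay in the CDS of ZBED6, a gene inside the same exon, so the gene is uncertain, and the nearer one was 146 nt from another annotated start. The ZNF75D summit was 2061 nt before the start codon, with 5.08 and 3.85, in a 5′ UTR with 34 upstream ATGs.

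The exon structure around the summits was compared with the 5′ UTRs that held them. In replicate 1, 637 summits (75.1%, interval 72.1% to 77.9%) were in exon 1, 160 (18.9%) in exon 2 and 51 in a later exon. In replicate 2 the numbers were 317 (70.9%, 66.5% to 74.9%), 103 (23.0%) and 27. Of all positions beyond 150 nt in the same 5′ UTRs, with each peak given equal weight, 71.6% and 69.5% were in exon 1. The start codon was in the same exon as the summit for 572 peaks of replicate 1 (67.5%) and 318 of replicate 2 (71.1%).

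Summits kept a distance from exon junctions. Within 100 nt of a junction lay 171 summits of replicate 1 (20.2%, interval 17.6% to 23.0%) and 65 of replicate 2 (14.5%, 11.6% to 18.1%). The same share over all positions of their own 5′ UTRs beyond 150 nt was 29.5% and 24.1%, so the observed shares were lower by more than their counting intervals. The exons that held the summits had a median length of 549.5 nt and 730 nt. In replicate 1, 13.6% of the shared summits and 26.6% of the unshared ones were within 100 nt of a junction.

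The upstream ATGs of the 5′ UTRs were then counted. An upstream ATG was present in the 5′ UTR of 702 peaks of replicate 1 (82.8%, interval 80.1% to 85.2%) and 396 of replicate 2 (88.6%, 85.3% to 91.2%), with a median of 2 and 3 per 5′ UTR. Of the transcripts with such a peak in either list 81.9% had one, against 73.6% of all that could hold a peak, but per length the order was the reverse, with 7.21 upstream ATGs per kb of 5′ UTR against 7.87. Of their 3859 upstream ATGs, 3633 opened a uORF that ended before the start codon, 207 one that ran past it in another frame, and 19 were in frame with the CDS.

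The share of summits inside uORFs was close to that of the positions around them. Inside a uORF lay 261 summits of replicate 1 (30.8%, interval 27.8% to 34.0%) and 137 of replicate 2 (30.6%, 26.6% to 35.1%). Over all positions of their own 5′ UTRs beyond 150 nt, each peak weighted equally, the share was 31.5% and 33.7%. Within 50 nt of an upstream ATG lay 37.1% (34.0% to 40.4%) and 41.6% (37.1% to 46.2%) of the summits, and 39.5% and 43.3% of the positions. The differences were within the counting intervals of the summit shares.

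**Figure D5:**
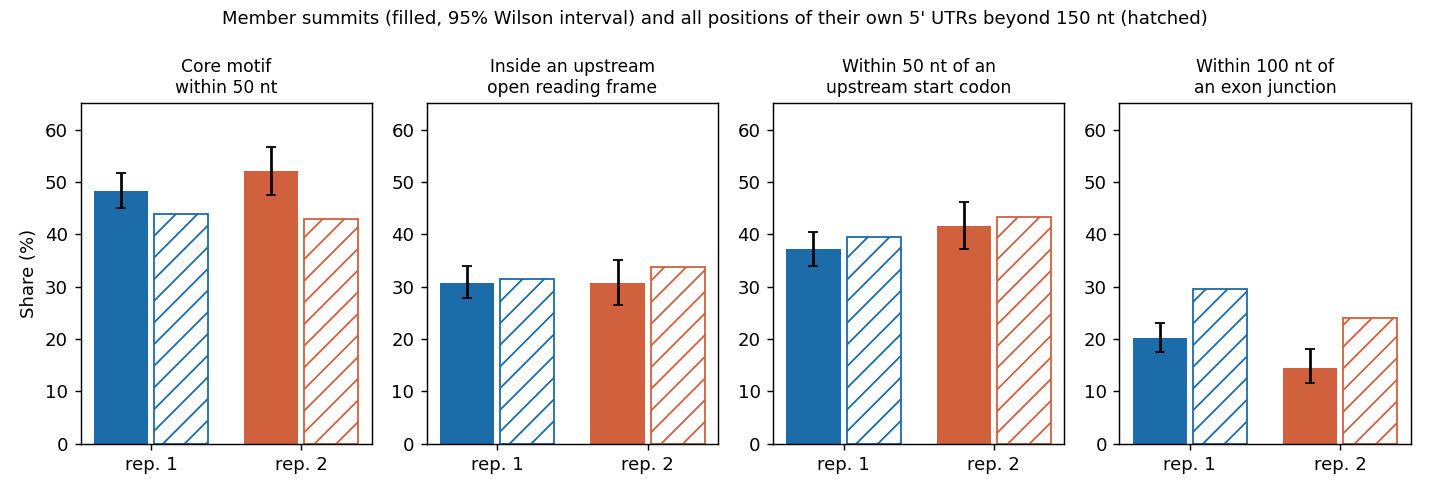
Share of summits (filled bars, 95% Wilson intervals) and of all positions of the same 5′ UTRs beyond 150 nt with each peak weighted equally (hatched bars), for the core motif within 50 nt, a position inside a uORF, an upstream ATG within 50 nt and an exon junction within 100 nt. The summit share lies above the positions for the motif, below them for the junction, and within its interval of them for both measures of upstream ATGs.

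The sense strand within 50 nt of each summit was searched for the GGAC motif. It was present at 410 summits of replicate 1 (48.3%, interval 45.0% to 51.7%) and 233 of replicate 2 (52.1%, 47.5% to 56.7%). Over all summits on multi-exon protein-coding transcripts the shares were 50.5% and 52.2%, so the 5′ UTR peaks did not stand out. None of 6 differences from the other regions passed 0.05 by Fisher's exact test, with adjusted p from 0.290 to 0.845. The difference farthest from 0 was that against 3′ UTR peaks in replicate 1, at −3.69 points (−7.32 to −0.0433, Fisher's exact test, unadjusted p = 0.0483).

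The letters around the core differed in frequency from the average of all summits on such transcripts, in the same direction as at the cap-proximal peaks, given here as values with no test. TGGAC was present at 12.7% and 13.9% of the 5′ UTR summits in replicates 1 and 2, against 19.4% and 20.3% of all summits on such transcripts and 12.8% and 9.88% of cap-proximal ones. GGACG was present at 12.6% and 12.8%, against 8.97% and 7.99% of all and 13.98% and 16.7% of cap-proximal summits. GTCC, the reverse complement of GGAC, was present at 39.9% and 34.2%, against 30.8% and 28.9% of all and 41.0% and 38.3% of cap-proximal summits. Mean GC content around the summit was 66.2% and 63.2% in these peaks, 70.3% and 70.0% in cap-proximal peaks, and 57.4% and 55.6% in CDS peaks. The part of base composition in these shares was not tested.

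Within its own transcript GGAC was more frequent at the summit than 200 nt away. Downstream of the summit the shares were 48.3% against 39.9% in replicate 1 (difference 8.49 points, exact McNemar test, adjusted p = 0.00127) and 52.1% against 36.2% in replicate 2 (15.9 points, adjusted p = 7.36e-06). The downstream position was not limited to the 5′ UTR. Summits were a median of 162 nt (replicate 1) and 211 nt (replicate 2) before the start codon, so many of these positions lay past it. The part of the region in the difference was not tested. Upstream, where 484 and 290 summits lay far enough from the start, the differences were 9.09 points (exact McNemar test, adjusted p = 0.00597) and 9.31 points (adjusted p = 0.0271). Some of these upstream positions lay within 150 nt of the start, where no summit was included. This was so at least for the 105 and 55 summits that were 251 to 300 nt from the start. The part of the region was not tested there either. With the middle of the peak in place of the summit the 4 differences were 0.912 to 4.68 points and none passed (adjusted p from 0.583 to 0.874). With a window of 25 nt the replicate 1 differences did not pass, and with 100 nt the upstream ones did not. At a fold enrichment of 5 or more all 4 passed, with 19.3 points upstream and 15.2 downstream in replicate 1 and 18.3 and 16.9 in replicate 2. Set against all positions of the same 5′ UTRs beyond 150 nt, of which 43.9% and 42.9% had GGAC within 50 nt, the summit shares were higher, with lower interval bounds of 45.0% and 47.5%.

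The motif did not pile up at the summit itself. In windows of 20 nt, GGAC adenines were most frequent from 50 to 69 nt downstream of the summit in replicate 1 (7.61 per kb) and from 30 to 49 nt downstream in replicate 2 (9.17 per kb). From 10 nt before to 9 nt after the summit they numbered 6.78 and 8.17 per kb. The nearest GGAC was a median of 52 nt away in replicate 1 and 45 nt in replicate 2.

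Finally, genes were counted. A 5′ UTR peak away from the cap was present in 786 genes in replicate 1 (8.78% of the 8952 that could hold one), 429 in replicate 2 (4.79%), 352 in both (3.93%) and 863 in either (9.64%). Most had 1 peak, with 54 genes having 2 and 4 having 3 in replicate 1, namely AHDC1, DUSP16, FBXW7 and SDCBP, named here after the values were seen. A further summit in the CDS of the same transcript was present for 66.8% of the genes in replicate 1 and 61.5% in replicate 2, and one in the 3′ UTR for 44.9% and 36.8%. Genes that could hold a peak here but had summits only elsewhere were higher, at 76.6% and 74.0% for CDS and 47.2% and 46.45% for the 3′ UTR. By definition, each of these has a summit outside this region, so the comparison is not an even one. In 134 genes (17.0% of 786) and 91 genes (21.2%) the transcript had no other summit. Expression was not measured here, so a gene without a peak cannot be told from one that OE-19 cells do not express. Of the 8952, 4137 had a peak summit anywhere on the transcript in replicate 1 and 3426 in replicate 2. The shares of all genes given below thus also count genes with no peak at all.

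Of the m6A regulators, 9 of 17 could hold such a peak and 2 had one in both lists, beside 3.93% of all genes. They were WTAP, the writer subunit that anchors METTL3 and METTL14 in nuclear speckles, and ALKBH5, an m6A demethylase. WTAP reached 9.16 in replicate 1 and 11.7 in replicate 2. Its peak (chromosome 6, 159726222 to 159726922 in replicate 1) lay in exon 1 of a 5′ UTR of 1757 nt with 19 upstream ATGs, with the summits 650 and 749 nt before the start codon. ALKBH5 had a weak and broad peak, with 3.22 and 2.27, that covered both its transcript start and its start codon. YTHDF1, YTHDF2, YTHDF3, IGF2BP3 and ZC3H13 had summits elsewhere on the transcript in both lists but none here.

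Of 20 genes known for control by uORFs, 14 could hold a peak, and 3 had one in either list (21.4% beside 9.64%) and 2 in both (14.3% beside 3.93%). SLC35A4, a gene of the nucleotide sugar transporter family whose uORF is known to be translated, had nearly equal values, 5.58 (replicate 1) and 5.56 (replicate 2). Its summits were 1 nt apart, 233 and 232 nt before the start codon, in a 5′ UTR of 1686 nt with 20 upstream ATGs. Both lay inside a uORF, and whether it is the one known to be translated was not tested. ATF5, a transcription factor of the stress response whose uORFs delay its translation, had 5.31 and 2.51, with the summits 3 and 24 nt before the start codon and inside a uORF. BACE1, the beta-secretase, had 9.43 in replicate 1, and the overlapping peak of replicate 2 (4.12) had its summit in CDS. ATF4, DDIT3, IBTK and PPP1R15B had summits elsewhere on the transcript in at least 1 list. AMD1, AZIN1, ERBB2, IFRD1, ODC1, TGFB3 and UCP2 had none in either list.

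Of 20 genes with a described internal ribosome entry site, 15 could hold a peak, and 3 had one in either list (20% beside 9.64% of all genes) and 2 in both (13.3% beside 3.93%). LEF1, a transcription factor of the Wnt pathway, had 12.1 (replicate 1) and 5.20 (replicate 2) at 856 and 857 nt before the start codon, and a second peak of replicate 1 (3.91) was not shared. IGF1R, the receptor of insulin-like growth factor 1, had 2 peaks in each list within 1043 nt of 5′ UTR. The one nearer the cap had 6.93 and 4.12, at 182 and 155 nt from the start, and the one nearer the start codon 3.45 and 3.05. MYC had a weak peak in replicate 1 alone (2.08), 152 nt from the start and so close to the limit, at a position that is coding in another annotated transcript.

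The core motif at these peaks is shown for comparison with the strongest peaks above, again as 25 nt with GGAC in capitals.
WTAP, chr6:159726694-159726718, plus strand: tcaacgccgcGGACacagcgcaacc
ALKBH5, chr17:18184078-18184102, plus strand: ccccacgcccGGACcctcgacgccc
SLC35A4, chr5:140566950-140566974, plus strand: tagctccatgGGACtcgccccaaga
LEF1, chr4:108168659-108168683, minus strand: aagaggggtcGGACtgagtgtgtgt
IGF1R, chr15:98648674-98648698, plus strand: agagcgagagGGACgccgccagcga
The adenine lay 14 nt after the replicate 1 summit in WTAP, 25 nt after it in SLC35A4, 5 nt before it in ALKBH5, 48 nt before it in LEF1 and 35 nt before it in IGF1R.

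Of 15 receptor tyrosine kinases that could hold a peak, 3 had one in either list (20% beside 9.64%) and 1, IGF1R, in both (6.67% beside 3.93%). INSR, the insulin receptor (2.69), and EPHB4, an ephrin receptor (2.60), had theirs in replicate 1 alone. Of 6 genes of the G1-S transition, WEE1, an inhibitory kinase of the cell cycle, had a summit here in replicate 2 (3.48), and the overlapping peak of replicate 1 (3.15) had its summit in CDS. That is 1 of 6 genes in either list (16.7% beside 9.64%) and 0 in both. CDC25A and E2F3 had summits elsewhere in both lists. Of 12 heat shock genes 5 could hold a peak and 0 had one, which with so few genes allows a share of up to 60.0%, taking 3 counts as the limit of a count of 0.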

How the data were processed

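Peak lists of the 2 m6A IP replicates of OE-19 cells were analysed, and the 2 input samples entered no test. The study's methods describe fragmented RNA freed of DNA by DNase, the labels UV fixation. The authors mapped reads to hg38 (TopHat2 in the methods, fastp and HISAT2 in the submitters' processing notes) and called peaks with MACS2 at default settings, 1 list per sample. Tool releases and the use of the input as control are not given in the sources used here. The deposited lists give, per peak, the summit's fold enrichment, a ratio to the caller's local background, with −log10 p and −log10 q, a score (10 times −log10 q, not used) and the summit offset. The highest q was 0.0491 and 0.0497. Depth being unknown, precision rests on how many peaks a share is taken over.

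The transcript of each protein-coding gene with the longest CDS was taken from GENCODE version 44 (ties by length, then identifier). Where a summit lay on several genes, 5′ UTR took precedence, then CDS and 3′ UTR. Sequences came from the GENCODE transcripts, and motifs were searched on the gene's strand. A uORF runs from an upstream ATG to its first in-frame stop, leaving out those in frame with the CDS. Shares have Wilson intervals, regions were compared with Fisher's exact test and motif positions with an exact McNemar test, both two-sided and adjusted by the Benjamini-Hochberg method. The authors' biological replicates are 1 group, so p-values cover counting error within a list only. On simulated summits the class was recovered for 2884 of 2884.

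Genes named were the 10 strongest in both lists, the 5 nearest and 3 farthest from the start codon, the 3 with most upstream ATGs, the 3 on each side of 150 nt, the 3 strongest of each list alone, and genes of 6 lists. Members, lists and tests were chosen with earlier results of these data known. Alternatives were q of 0.01 or 1e-05, fold enrichment of 5, limits of 100, 200 and 300 nt, the canonical transcript, distance from every annotated start, peak midpoints, summits of several genes left out, other overlap and motif rules, and each replicate left out. Sequences on chromosome 8 were not reported. Python 3.11.15, numpy 2.4.6, scipy 1.17.1, statsmodels 0.14.6 and matplotlib 3.10.9 were used.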

Additional observations from a re-analysis of the deposited data

How the results depend on the processing

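No paired analysis was possible because only IP lists were used, so that replicate numbers link no pair of groups. Of 330 values under the alternatives, 268 were counted as unchanged. For tested differences this meant the same direction and side of the threshold, and for shares a value within the interval. Numbers of peaks and genes have no interval, and their limit was loose. In replicate 1, 584 peaks away from every annotated start and 618 beyond 200 nt still counted as unchanged beside 848. The median distance to the start codon counted as unchanged in every setting, from 152.5 to 204 nt beside 162 nt in replicate 1. The number 268 is therefore no strict measure of stability. In each result below, values are given for replicate 1 and then replicate 2 where both changed.

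Numbers of peaks were 389 and 136 at a fold enrichment of 5 or more, 378 and 235 beyond 300 nt, and 1290 in replicate 1 beyond 100 nt. Genes numbered 376 and 134, 353 and 225, and 1197 in the same settings. Over both lists, 863 genes became 429 without replicate 1 and 786 without replicate 2.

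The shared portion was 29.1% and 88.2% at a fold enrichment of 5, 42.2% and 79.2% with an overlap of 50% of both peaks, and 42.8% and 82.3% for summits within 100 bp. At a fold enrichment of 5 the overlapping peak of the other list also had to reach 5. Those shares therefore do not tell how often strong peaks overlapped any peak of the other list. In replicate 1 it was 41.9%, 53.9% and 57.1% beyond 100, 200 and 300 nt, and 54.8% away from every annotated start. In replicate 1 the difference from CDS peaks was −23.2 at a fold enrichment of 5, −19.9 and −7.88 beyond 100 and 200 nt and −6.97 away from every start. That from cap-proximal peaks was 9.75 at a fold enrichment of 5 and 14.7 beyond 100 nt, and that from 3′ UTR peaks −10.5 beyond 300 nt, and all of these passed. The difference from CDS peaks fell short in replicate 1 beyond 300 nt, at −4.62 points (Fisher's exact test, adjusted p = 0.113). In replicate 2, where it was not called, it turned to 0.268 at q of 0.01, 0.693 at q of 1e-05, 0.177 with canonical transcripts, 0.261 away from every start, 0.140 without summits of several genes, and 3.06 for summits within 100 bp. Against cap-proximal peaks of replicate 2 the difference was −0.452 beyond 300 nt, −2.86 for summits within 100 bp, and passed at 5.55 points with canonical transcripts (Fisher's exact test, adjusted p = 0.0163). Against 3′ UTR peaks of replicate 2 it passed at −1.91 points beyond 100 nt (Fisher's exact test, adjusted p = 0.0332) and was 2.56 for summits within 100 bp.

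The GGAC share was 27.6% and 30.2% in a window of 25 nt, 71.0% and 72.3% in one of 100 nt, and 44.9% in replicate 1 at peak midpoints. Differences in GGAC share, none of them called, changed sign against cap-proximal peaks of replicate 1 to −0.516 (fold enrichment of 5), −0.480 (300 nt), −3.77 (midpoints), −0.211 (25 nt window) and −0.391 (100 nt window), and of replicate 2 to 0.176 (100 nt), 1.99 (200 nt) and 4.45 (midpoints). They changed sign against CDS peaks of replicate 2 to −2.17 (300 nt) and −1.06 (100 nt window), and against 3′ UTR peaks of replicate 2 to 0.346 (q of 1e-05) and 0.120 (200 nt). GGAC at the summit minus 200 nt upstream fell short at midpoints (0.971 and 0.912 points), in the 25 nt window in replicate 1 (4.95) and in the 100 nt window (6.90 and 5.96). Minus 200 nt downstream it fell short at midpoints (2.14 and 4.68) and in the 25 nt window in replicate 1 (3.66). It passed but moved by over 1.5 times at a fold enrichment of 5 (upstream 19.3 and 18.3, downstream 15.2 in replicate 1) and in replicate 2 downstream with windows of 25 and 100 nt (9.40 and 8.50) and with a control 300 nt away (14.7 upstream, 10.1 downstream). The cause was not tested.

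The share inside a uORF was 25.9%, 35.4% and 39.7% in replicate 1 beyond 100, 200 and 300 nt, and 35.3% in replicate 2 at a fold enrichment of 5.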

Other observations

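Gene families taken by symbol, not described above, were counted among the 8952 genes whose 5′ UTR could hold a peak away from the cap, of which 9.64% had one in either list. The counts are a description with no test, and expression was not measured. FOX and SOX transcription factors had a peak in 6 of 28 genes (21.4%). FOXO4, FOXP4 and SOX13 had one in both lists, while FOXO1 and SOX9 had theirs in replicate 1 alone and FOXJ2 in replicate 2 alone. FOXO4, a factor downstream of insulin signaling, reached a fold enrichment of 11.8 (replicate 1) and 8.40 (replicate 2), with summits 37 and 30 nt before the start codon. KLF and SP factors had a peak in 4 of 16 genes. KLF4 had one in each list (3.21 and 2.46), but it was not among the pairs of overlapping peaks described above. Zinc finger genes of the ZNF series, the most numerous of these families, had a peak in 34 of 347 genes (9.80%), close to the share of all genes.

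SLC transporters had a peak in 28 of 204 genes (13.7%), RNF and TRIM ubiquitin ligases in 11 of 89 (12.4%), KLHL and ZBTB proteins in 7 of 53 (13.2%), and kinases of the MAPK cascade in 4 of 33 (12.1%). Among the last, MAP3K21 reached 12.9 (replicate 1) and 9.01 (replicate 2), with summits 119 and 136 nt before the start codon. USP deubiquitinases had a peak in 3 of 34 genes (8.82%) and RAB GTPases in 2 of 39 (5.13%). Of the ribosomal protein genes, 17 could hold a peak and 0 had one, which allows a share of up to 17.6%, taking 3 counts as the limit of a count of 0.

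The highest fold enrichment of any of these 5′ UTR peaks was 20.8, in MGAT4A of replicate 1, an enzyme that branches N-linked sugar chains, against 6.07 in replicate 2. Its summits were 69 and 56 nt before the start codon, and it was named after its values were seen.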
